A study of Homo sapiens with 14 samples.

Results

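The integrin and laminin chain genes were followed across neural crest induction in 38 genes, chosen by symbol alone as every integrin alpha chain, every integrin beta chain 1 to 8 and every laminin alpha, beta and gamma chain in the count table. They were 26 integrin and 12 laminin genes among 26485 genes in all. Messenger RNA had been sequenced from WA01 cells, the H1 line of human embryonic stem cells, and from cultures taken from it toward neural crest for 5 days. CHIR99021, a GSK3 inhibitor that activates canonical Wnt signaling, was present during hours 0 to 72 at 10 µM (high Wnt) or 3 µM (low Wnt). At each dose, cultures also received recombinant human TGF-beta 1 (TGFB, 5 ng/µL as the labels state it), SB431542 (SB4, 10 µM, which blocks the ALK receptors of TGF-beta, activin and nodal signals) or neither, from hour 0 to hour 120. There were thus 7 groups of 2 libraries: at the high dose with TGFB (high Wnt + TGFB), with SB4 (high Wnt + SB4) and with neither, the same 3 at the low dose, and the uninduced cells (hESC). All induced groups shared the Matrigel coating and a DMEM/F12 medium with B27 and BSA, so an induced group differs from hESC by the whole induction and not by CHIR99021 alone. One cell line was used, and since no label ties a group's pair of libraries to separate cultures, the p-values speak only to the spread among the libraries, which may be technical.

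Integrins are cell surface receptors made of 1 alpha and 1 beta chain. They hold cells to matrix proteins on the outside and join the actin cytoskeleton through talin, kindlin and vinculin on the inside. Laminins are the main adhesive proteins of basement membranes, each built from an alpha, a beta and a gamma chain, and the beta and gamma chains assemble before an alpha chain lets the trimer leave the cell. During development, neural crest cells leave an epithelium, cross its basement membrane and move over matrix that holds laminin and fibronectin, and several integrins, ITGAV with ITGB8 or ITGB6 among them, can also release active TGF-beta from its latent form. Matrigel is itself a basement membrane extract rich in laminin protein, which mRNA counts do not measure.

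RefSeq promoter windows (GRCh38.p14, 250 bases before to 50 after the annotated start) were found for 26 of the 38 genes. LAMB1 changed with both additives at both CHIR99021 doses, and ITGB8 with TGFB at both doses and with SB4 at the high dose. LAMA4 and ITGA5 had SB4 effects that differed between the doses. The windows of these 4 genes, on which the results turn, are printed here. Each runs 5′ to 3′ on its gene's strand, and capitals mark CAGAC (a SMAD-binding motif), GTCTAGAC (its palindrome), TGANTCA (AP-1) and CTTTGNT (TCF/LEF), searched on both strands, so that CAGAC may read GTCTG.
LAMB1, chr7:108003112-108003411, minus strand: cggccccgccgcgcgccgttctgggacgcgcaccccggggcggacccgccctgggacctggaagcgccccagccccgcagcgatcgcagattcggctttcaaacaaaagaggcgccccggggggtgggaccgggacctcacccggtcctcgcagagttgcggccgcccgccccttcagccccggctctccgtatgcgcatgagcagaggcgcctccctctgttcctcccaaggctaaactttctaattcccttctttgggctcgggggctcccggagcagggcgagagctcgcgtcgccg
ITGB8, chr7:20330650-20330949, plus strand: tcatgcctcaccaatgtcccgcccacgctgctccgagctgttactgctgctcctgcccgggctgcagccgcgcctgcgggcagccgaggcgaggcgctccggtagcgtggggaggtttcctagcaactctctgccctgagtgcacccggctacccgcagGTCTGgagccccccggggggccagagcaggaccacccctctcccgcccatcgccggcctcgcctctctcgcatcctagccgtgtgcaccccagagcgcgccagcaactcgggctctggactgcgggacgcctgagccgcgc
LAMA4, chr6:112254518-112254817, minus strand: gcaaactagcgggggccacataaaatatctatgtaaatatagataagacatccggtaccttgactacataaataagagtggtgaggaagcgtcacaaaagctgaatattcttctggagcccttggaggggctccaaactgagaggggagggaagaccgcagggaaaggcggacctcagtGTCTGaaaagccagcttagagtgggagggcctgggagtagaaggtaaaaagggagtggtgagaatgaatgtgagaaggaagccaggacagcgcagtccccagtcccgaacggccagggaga
ITGA5, chr12:54419217-54419516, minus strand: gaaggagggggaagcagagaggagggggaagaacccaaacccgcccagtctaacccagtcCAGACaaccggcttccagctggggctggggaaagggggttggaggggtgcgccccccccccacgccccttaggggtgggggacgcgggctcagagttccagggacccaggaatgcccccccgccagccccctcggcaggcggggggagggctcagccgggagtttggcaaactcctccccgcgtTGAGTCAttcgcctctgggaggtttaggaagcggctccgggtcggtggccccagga
The LAMB1 window held none of the 4 marked motifs, but 4 copies of the GC box GGGCGG, and was 71.0% G or C. The windows of ITGB8, LAMA4 and ITGA5 each held 1 CAGAC, and that of ITGA5 also held 1 AP-1 motif. The SMAD motif was found in 14 of the 26 windows and in 45.0% of all 27305 promoter windows of the same length. The AP-1 motif was found in 2 of the 26, those of ITGA5 and LAMA3, and in 7.76% of all windows. The TCF/LEF motif was found in 2 of the 26, those of ITGAM and LAMB2, and in 15.6% of all windows. The SMAD palindrome was in none of the 26 and in 0.201% of all windows, while the GC box was in 14 of the 26 and in 44.6% of all windows. A match is only a run of letters, and the RefSeq start lay 198 bases from the edge of the gene in the count table for LAMB1, 202 for ITGB8, 148 for LAMA4 and 0 for ITGA5.

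Library totals ran from 10879287 to 19106827 counts, of which 0.194 to 0.317% fell in the 38 genes. Levels are given as CPM, the library's counts scaled to a common total, and levels of different genes are compared per kilobase of annotated exon. Of 8 neural crest markers, 2 were called higher and 3 lower in high Wnt than in hESC, and 5 were higher and 2 lower in low Wnt than in hESC. PAX3, a factor of the neural plate border, the crest and also paraxial mesoderm, averaged 173 ± 6.05 CPM in high Wnt, 7.61 ± 1.38 in low Wnt and 0.0848 ± 0.120 in hESC (SD, n = 2 each). SOX10, which marks the neural crest lineage, averaged 1.55 ± 0.154, 4.04 ± 0.308 and 5.63 ± 1.27 CPM in these groups, so its high Wnt mean was under that of hESC. TFAP2A, another crest factor, averaged 0.117 ± 0.0689, 3.50 ± 0.472 and 0.153 ± 0.0970 CPM. Its means in high Wnt and hESC were both under the level of 3 counts, 0.206 to 0.254 CPM in these libraries, and are not ordered here. Paraxial mesoderm markers, TBX6 and MEOX1 among them, were higher in high Wnt than in hESC in 6 of 7 and summed to 192 to 230 CPM in high Wnt, 6.93 to 9.13 in low Wnt and 9.84 to 10.0 in hESC. SMAD7, an inhibitory SMAD and a common TGF-beta target, had log2 fold changes with SB4 of -1.35 (SE 0.278, adjusted p = 0.00237) in high Wnt and -0.33 (SE 0.319, adjusted p = 0.578) in low Wnt in edgeR's quasi-likelihood test. With TGFB its log2 fold changes were 0.26 (SE 0.262, adjusted p = 0.641) in high Wnt and 1.57 (SE 0.29, adjusted p = 0.00066) in low Wnt.

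Of the 38 genes 30 were tested and 8 had too few counts. A gene is called here when edgeR's quasi-likelihood test gave an adjusted p under 0.05, adjusted by Benjamini and Hochberg's method over all 16149 tested genes. Without an additive, 27 of the 30 differed between high Wnt and hESC, where 72.4% of all tested genes were called. In that comparison 14 were higher (36.3% of all genes were), 13 were lower (36.1% of all), and 21 had a log2 fold change of at least 1 in size (43.2% of all). Between low Wnt and hESC 20 of the 30 were called, against 71.4% of all genes, with 9 higher (35.8% of all), 11 lower (35.6% of all) and 14 at least 1 in size (40.6% of all). Between high Wnt and low Wnt 20 were called, against 38.5% of all genes, with 11 higher (19.4% of all), 9 lower (19.1% of all) and 12 at least 1 in size (17.2% of all). The share called among the 30 was thus near the background for low Wnt against hESC, at 66.7%, and above it for high Wnt against low Wnt, also at 66.7%.

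The additives changed fewer of the 30 genes. With TGFB 5 were called in high Wnt, against 7.25% of all genes, with 3 higher (3.75% of all), 2 lower (3.49% of all) and 4 at least 1 in size (2.65% of all). With TGFB in low Wnt 12 were called, against 26% of all genes, with 8 higher (13.7% of all), 4 lower (12.2% of all) and 6 at least 1 in size (10.2% of all). With SB4 12 were called in high Wnt, against 21.5% of all genes, with 3 higher (9.94% of all), 9 lower (11.6% of all) and 5 at least 1 in size (5.96% of all). With SB4 in low Wnt 6 were called, against 11.2% of all genes, with 0 higher (4.84% of all), 6 lower (6.39% of all) and 3 at least 1 in size (4.4% of all). At an unadjusted p under 0.05 in edgeR 4 of the 30 were higher there, and DESeq2 called 1 higher, ITGB8. The SB4 effect differed between doses for 6 genes, against 6.07% of all, with 3 more positive at the high dose (2.71% of all), 3 more negative (3.36% of all) and 5 at least 1 in size (3.57% of all). The TGFB effect differed for 6 genes, against 11.8% of all, with 2 more positive at the high dose (5.73% of all), 4 more negative (6.06% of all) and 5 at least 1 in size (6.59% of all). Some genes entered the test through 1 high group, so these counts describe the 30 and carry no test of the family. In bulk cultures, fewer cells that make an mRNA cannot be told apart from less of it per cell.

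**Figure D1:**
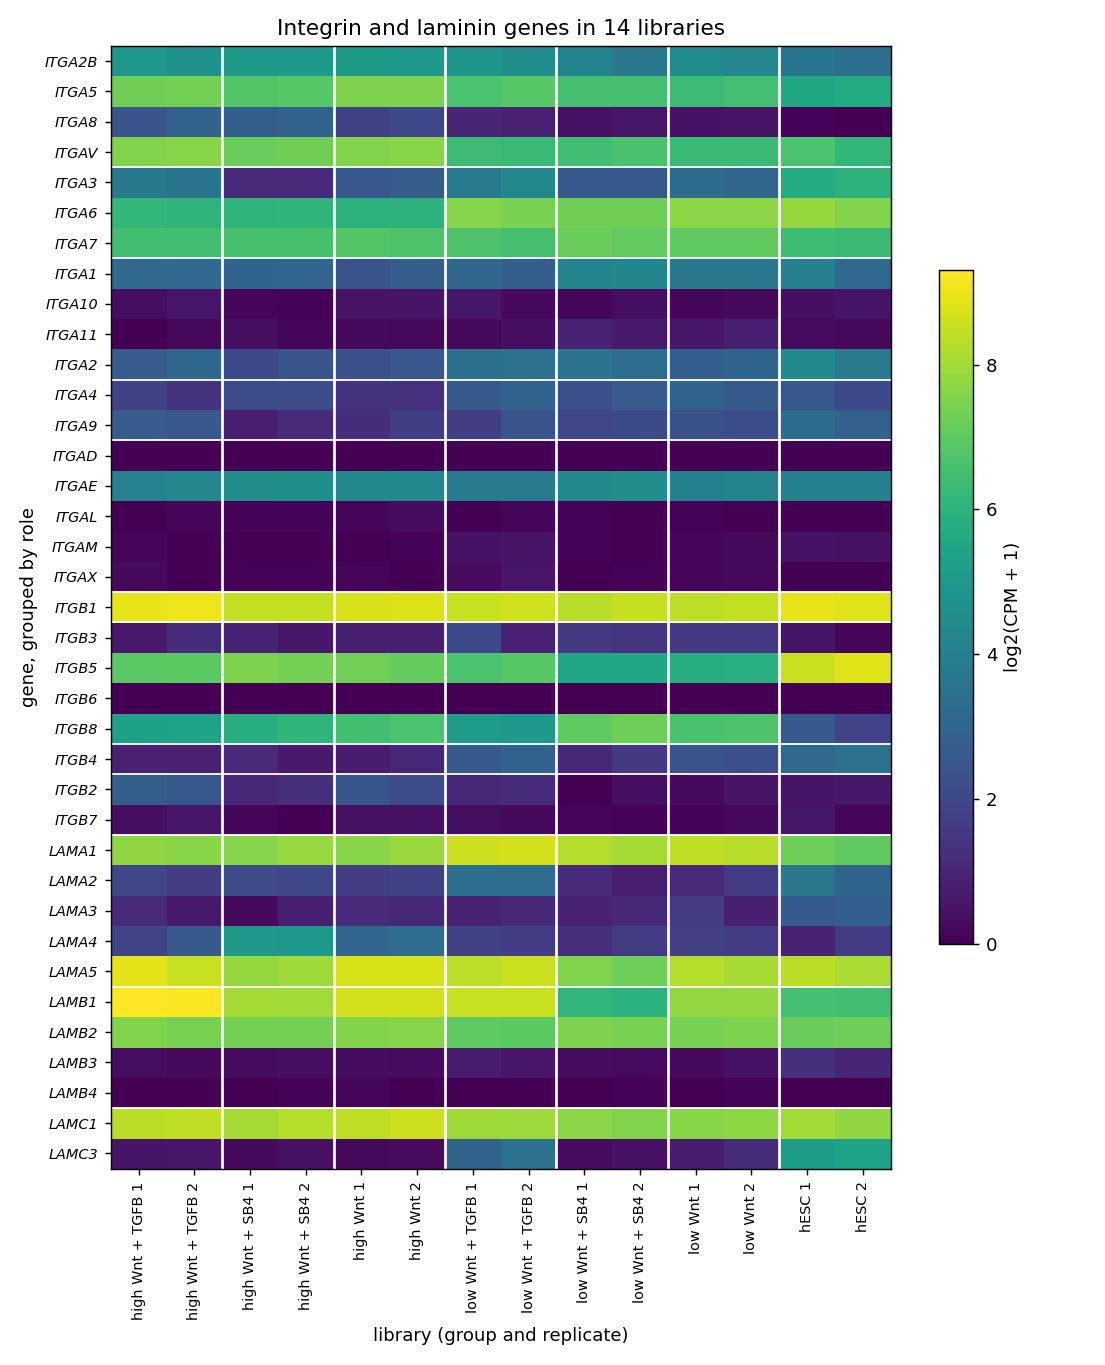
Level of 37 integrin and laminin genes (rows, grouped by role) in each of the 14 libraries (columns), as log2(CPM + 1) in colour. ITGB1, LAMB1, LAMA1, LAMA5, LAMB2 and LAMC1 are bright in most groups, LAMC3 and ITGB5 are brightest in hESC, and ITGB8 is dark in hESC only.

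LAMB1, a beta chain of many early laminins (chromosome 7, 107923801 to 108003359, minus strand, hg38), changed in all 7 comparisons between groups. It had 629 and 610 CPM in high Wnt + TGFB, 264 and 254 in high Wnt + SB4, and 400 and 402 in high Wnt. In the low Wnt cultures it had 368 and 366 CPM with TGFB, 68.9 and 61.1 with SB4, and 223 and 220 with no additive, while hESC had 90.5 and 89.1 CPM. No 2 of these groups overlapped, and SB4 took the low Wnt cultures to a level under that of hESC. At each dose the summed epithelial markers, given below with LAMC3, had the same order of additives. Unlike LAMB1, these markers were highest in hESC, and their part in the LAMB1 result was not tested. LAMB1 rose with TGFB by 0.63 (SE 0.0853, adjusted p = 0.000174) on the log2 scale in high Wnt and by 0.73 (SE 0.0858, adjusted p = 7.69e-06) in low Wnt. It fell with SB4, with log2 fold changes of -0.63 (SE 0.0856, adjusted p = 6.71e-05) in high Wnt and -1.77 (SE 0.0895, adjusted p = 4.23e-09) in low Wnt. The SB4 fall was smaller at the high dose, the effects differing by 1.14 (SE 0.122, adjusted p = 1.81e-05), whereas no difference was called between the TGFB effects. Without an additive LAMB1 was 2.16 (SE 0.0903) higher in high Wnt than in hESC, 1.30 (SE 0.0886) higher in low Wnt than in hESC, and 0.86 (SE 0.086) higher in high Wnt than in low Wnt. The call held without any single library in each of these comparisons.

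The other beta chains moved less or were scarce. LAMB2, the beta chain of adult muscle and kidney laminins, had 184 and 166 CPM in high Wnt + TGFB, 163 and 163 in high Wnt + SB4, and 190 and 194 in high Wnt. It had 127 and 122 CPM in low Wnt + TGFB, 178 and 165 in low Wnt + SB4, 166 and 180 in low Wnt, and 143 and 151 in hESC. The low Wnt + TGFB libraries stood below every other library, and LAMB2 fell there, with a log2 fold change of -0.47 (SE 0.0914, adjusted p = 0.00107). The beta chain balance therefore shifted per kilobase: the ratio of LAMB1 to LAMB2 was 3.40 and 3.64 in high Wnt + TGFB, 1.61 and 1.55 in high Wnt + SB4, and 2.09 and 2.06 in high Wnt. It was 2.87 and 2.97 in low Wnt + TGFB, 0.384 and 0.368 in low Wnt + SB4, 1.34 and 1.21 in low Wnt, and 0.631 and 0.586 in hESC. LAMB2 was thus the more abundant beta chain per length in hESC and low Wnt + SB4, and LAMB1 in the other 5 groups. LAMB3, the beta chain of epidermal laminin, had at most 0.640 CPM in every induced library, against 1.41 and 1.02 CPM in hESC, and LAMB4 had at most 1 count in a library and was not tested.

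**Figure D2:**
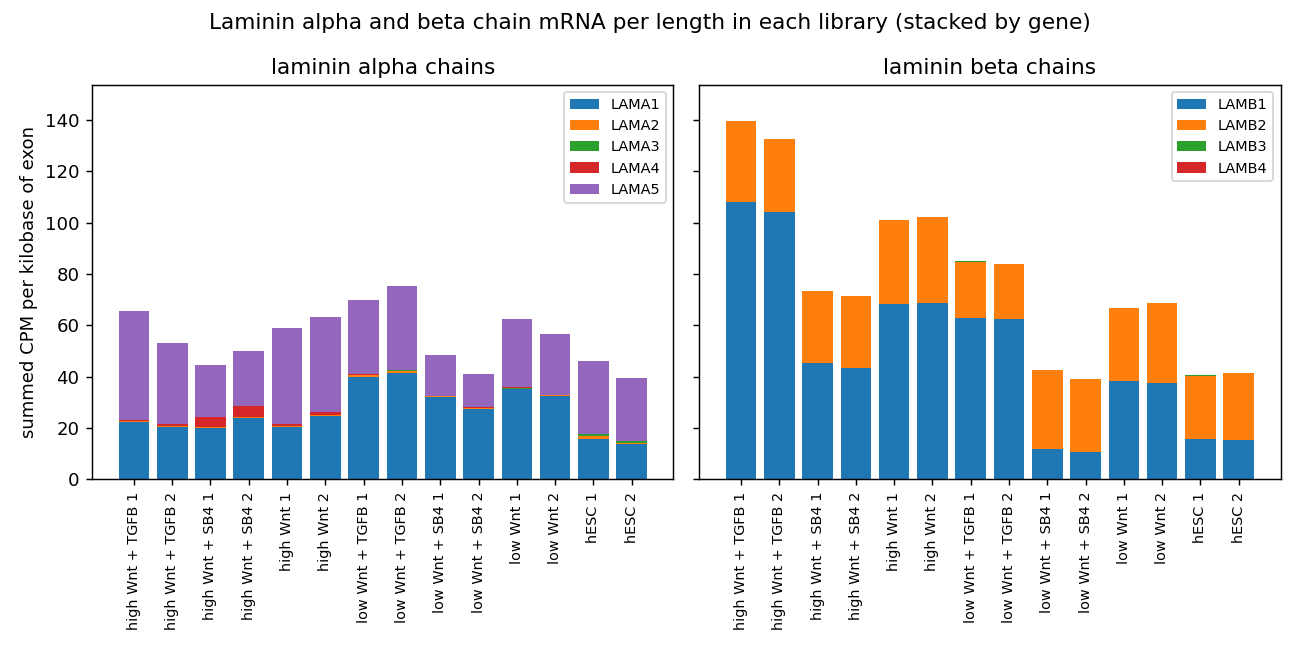
Summed CPM per kilobase of exon for the laminin alpha and beta chains (panels), stacked by gene, 1 bar per library. The beta chain bars are tallest in high Wnt + TGFB and shortest in low Wnt + SB4 and hESC through LAMB1, and LAMA4 appears in high Wnt + SB4.

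Among the alpha chains, which bind the cell's receptors, LAMA1 and LAMA5 made up most of the mRNA. LAMA1, the first alpha chain of the embryo, had 214 and 197 CPM in high Wnt + TGFB, 192 and 231 in high Wnt + SB4, 197 and 238 in high Wnt, 384 and 400 in low Wnt + TGFB, 310 and 266 in low Wnt + SB4, 340 and 313 in low Wnt, and 151 and 131 in hESC. All 6 low-dose libraries lay above all 6 high-dose libraries, and hESC lay below both. LAMA1 was 1.21 (SE 0.123, adjusted p = 1.9e-07) higher in low Wnt than in hESC. The log2 fold change of high Wnt against low Wnt was -0.58 (SE 0.121, adjusted p = 0.00102), with no call for either additive. LAMA5, the alpha chain on which human stem cells are often grown, had 485 and 363 CPM in high Wnt + TGFB, 228 and 248 in high Wnt + SB4, 424 and 424 in high Wnt, 330 and 371 in low Wnt + TGFB, 183 and 150 in low Wnt + SB4, 305 and 272 in low Wnt, and 325 and 278 in hESC. It fell with SB4 at both doses without overlap, with log2 fold changes of -0.83 (SE 0.134, adjusted p = 0.000321) in high Wnt and -0.80 (SE 0.134, adjusted p = 0.000879) in low Wnt. Per kilobase the ratio of LAMA1 to LAMA5 was 0.523 and 0.641 in high Wnt + TGFB, 0.997 and 1.1 in high Wnt + SB4, and 0.550 and 0.666 in high Wnt. It was 1.38 and 1.28 in low Wnt + TGFB, 2.01 and 2.10 in low Wnt + SB4, 1.32 and 1.36 in low Wnt, and 0.551 and 0.557 in hESC.

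LAMA4, the alpha chain of blood vessel and mesenchymal basement membranes (chromosome 6, 112107931 to 112254715, minus strand), was high in 1 group. It had 2.78 and 5.03 CPM in high Wnt + TGFB, 30.6 and 30.1 in high Wnt + SB4, and 7.15 and 9.01 in high Wnt. In the low Wnt cultures it had 2.49 and 2.22 CPM with TGFB, 1.40 and 2.04 with SB4, and 2.37 and 2.03 with no additive, and hESC had 0.888 and 2.04 CPM. The high Wnt + SB4 libraries stood far above the rest. LAMA4 rose with SB4 in high Wnt by 1.90 (SE 0.258, adjusted p = 6.55e-05) on the log2 scale, and this effect differed from that in low Wnt by 2.24 (SE 0.428, adjusted p = 0.00353). With TGFB in high Wnt its log2 fold change was -1.02 (SE 0.286, adjusted p = 0.0395), a call that was lost without either high Wnt library, either high Wnt + SB4 library or replicate 1 of high Wnt + TGFB, with adjusted p of 0.0597 to 0.3. The TGFB value was -0.68 without replicate 1 and -1.54 without replicate 2 of high Wnt + TGFB. LAMA4 was 1.88 (SE 0.301) higher in high Wnt than in low Wnt and 2.49 (SE 0.335) higher in high Wnt than in hESC, or 3.20 without replicate 2 of hESC. Markers of several cell types moved with SB4 in high Wnt. The summed level of 6 neural tube progenitor markers was 151 to 170 CPM in high Wnt + SB4, against 33.7 to 41.9 in high Wnt, with 4 of 6 called higher. The 5 smooth muscle markers summed to 169 to 198 CPM in high Wnt + SB4, with MYH11 at 0, against 1070 to 1220 in high Wnt, and 4 of the 4 tested fell. The 7 paraxial mesoderm markers summed to 108 to 133 CPM there, against 192 to 230 in high Wnt, with 5 lower and 1 higher. The 6 endothelial markers, PECAM1 and CDH5 among them, summed to 31.3 to 32.1 CPM in high Wnt + SB4 and 29.7 to 31.4 in high Wnt. ROBO4 was at 0 in both, and of 4 tested 0 were called higher and 1 lower with SB4. These markers summed to 114 to 177 CPM over the low-dose groups. Gene by gene they were mixed, with 2 of 4 called higher and 1 lower in high Wnt than in low Wnt. The part of these cells in the LAMA4 result was not tested.

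LAMA2, the alpha chain of muscle and nerve basement membranes (chromosome 6, 128883141 to 129516565, plus strand), had 9.39 and 9.07 CPM in low Wnt + TGFB, 1.16 and 0.733 in low Wnt + SB4, with 1.22 and 2.09 in low Wnt. The high Wnt libraries had 2.96 and 2.21 CPM with TGFB, 3.37 and 3.06 with SB4, and 2.24 and 2.48 with no additive, against 12.1 and 6.95 CPM in hESC. Only the low Wnt + TGFB libraries reached the range of hESC. LAMA2 rose with TGFB in low Wnt by 2.47 (SE 0.317, adjusted p = 1.93e-05) on the log2 scale, and the effect in high Wnt minus that in low Wnt was -2.36 (SE 0.471, adjusted p = 0.0029). LAMA3, the epidermal alpha chain, had at most 2.07 CPM in any induced library, against 5.25 and 5.85 CPM in hESC. Its log2 fold change against hESC was -2.33 (SE 0.466, adjusted p = 0.000263) in high Wnt and -1.96 (SE 0.438, adjusted p = 0.000755) in low Wnt, or -2.82 without replicate 1 of low Wnt.

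Of the gamma chains, LAMC1 was abundant in all groups and LAMC3 was highest in hESC. LAMC1, the gamma chain of most laminins, had 320 and 336 CPM in high Wnt + TGFB, 263 and 303 in high Wnt + SB4, 343 and 383 in high Wnt, 251 and 245 in low Wnt + TGFB, 203 and 185 in low Wnt + SB4, 201 and 208 in low Wnt, and 257 and 214 in hESC. It was 0.83 (SE 0.107, adjusted p = 9.16e-06) higher in high Wnt than in low Wnt and fell with SB4 in high Wnt, with a log2 fold change of -0.36 (SE 0.106, adjusted p = 0.0237). The second call was lost without replicate 1 of high Wnt + SB4 (adjusted p = 0.197) or replicate 2 of high Wnt (adjusted p = 0.157), and with library totals as the only scaling (adjusted p = 0.0726).

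LAMC3, a gamma chain known from retina and cortex (chromosome 9, 131009117 to 131093059, plus strand), had at most 0.491 CPM in the high-dose libraries, 6.83 and 9.95 in low Wnt + TGFB, 0.244 and 0.367 in low Wnt + SB4, 0.670 and 1.26 in low Wnt, and 35.3 and 40.7 in hESC. It was low after induction except in low Wnt + TGFB, where it stood between the other induced groups and hESC. Its log2 fold change against hESC was -7.60 (SE 0.372) in high Wnt and -5.29 (SE 0.285) in low Wnt, with adjusted p of 2.02e-11 and 8.71e-11. With TGFB in low Wnt, LAMC3 rose by 3.12 (SE 0.292, adjusted p = 6.13e-07). In high Wnt + TGFB its log2 fold change was 1.29 (adjusted p = 0.279), and the TGFB effect in high Wnt minus that in low Wnt was -1.82 (SE 0.831, adjusted p = 0.183), which was not called. LAMC3 also fell with SB4 in low Wnt, with a log2 fold change of -1.61 (SE 0.458, adjusted p = 0.03), a call lost without replicate 2 of low Wnt or either low Wnt + SB4 library (adjusted p of 0.104 to 0.334) and when only these 2 groups were fitted (adjusted p = 0.0788).

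Endoderm, stem cell and epithelial markers moved with the LAMC3 and LAMA2 results in the low Wnt cultures. The 5 endoderm markers, SOX17 and FOXA2 among them, summed to 41.9 to 91.4 CPM in low Wnt + TGFB, against 1.77 to 2.09 in low Wnt, where AFP was at 0, and 8.21 to 8.74 in hESC, and 5 of 5 were called higher with TGFB in low Wnt, with a median log2 fold change of 5.01. The summed level of 6 stem cell markers, POU5F1 and NANOG among them, was 826 to 888 CPM in low Wnt + TGFB, 168 to 176 in low Wnt + SB4, 314 to 360 in low Wnt, 144 to 172 over the high-dose groups and 2560 to 2600 in hESC. The 6 epithelial markers, CDH1 and EPCAM among them, summed to 827 to 1090 CPM in low Wnt + TGFB, 144 to 149 in low Wnt + SB4, 256 to 280 in low Wnt, and 1650 to 1910 in hESC. In the high-dose cultures they summed to 891 to 972 CPM with TGFB, 295 to 329 with SB4 and 485 to 602 with no additive. With TGFB 6 of 6 epithelial markers were called higher in low Wnt and 2 of 6 in high Wnt. NANOG was at 0 in both high Wnt libraries. POU5F1 averaged 41.9 ± 4.20 CPM in low Wnt + TGFB, 3.16 ± 1.71 in low Wnt and 197 ± 47.5 in hESC (SD, n = 2 each). The part of these cells in the laminin changes was not tested.

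**Figure D3:**
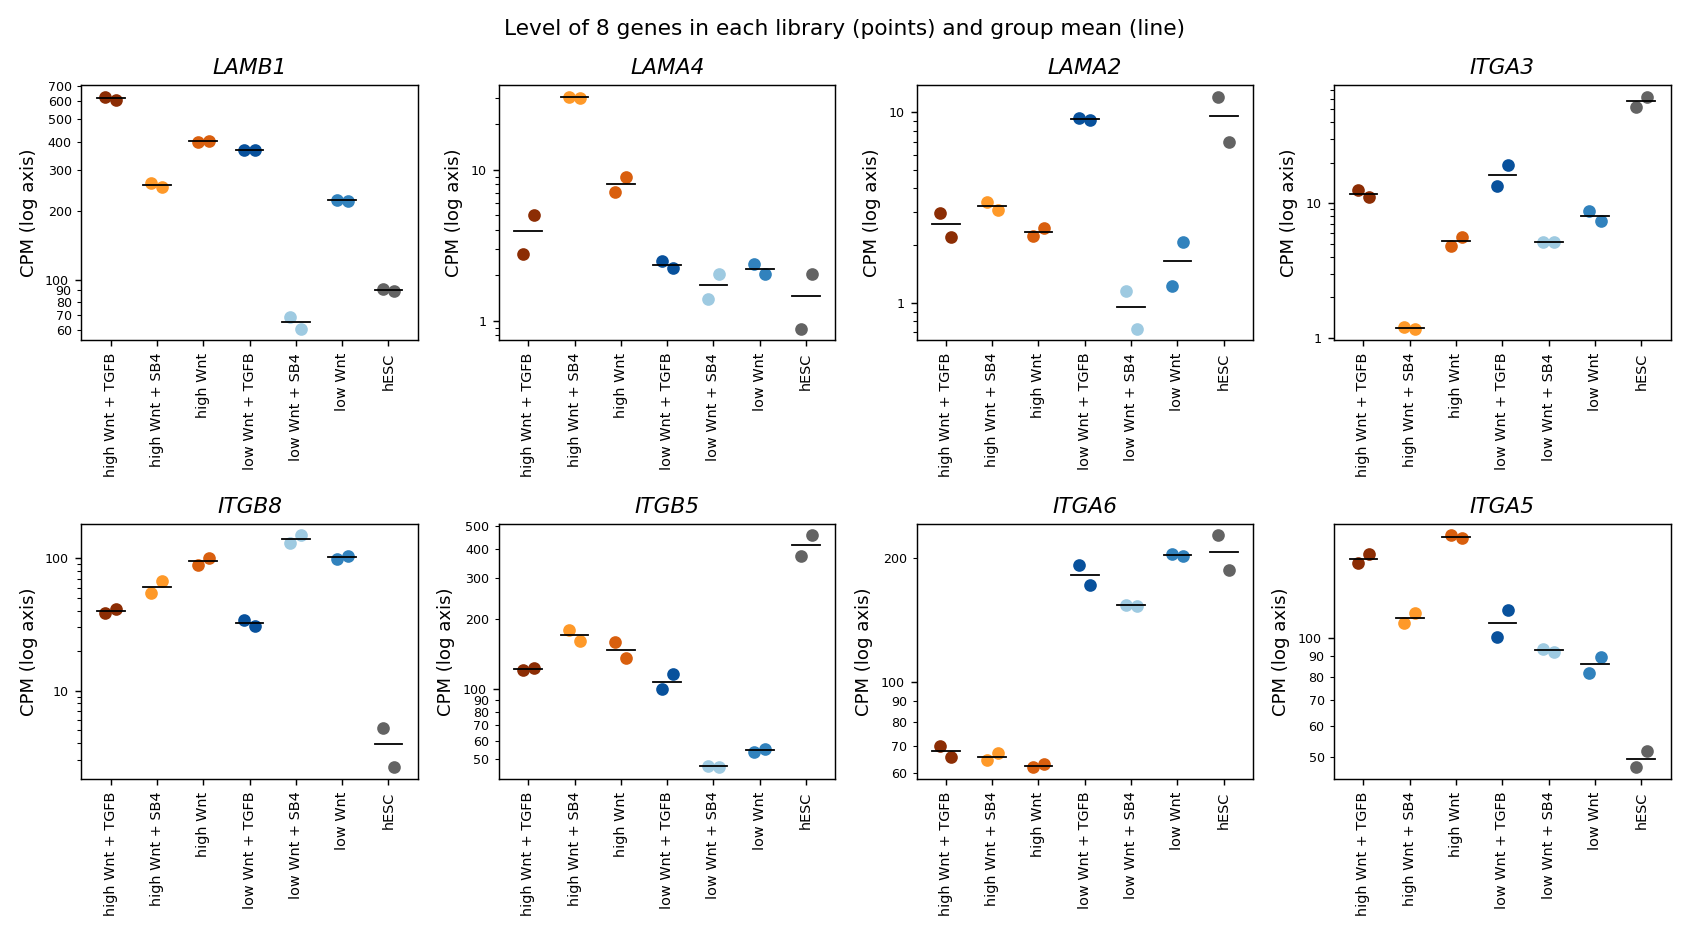
CPM on a log axis for 8 integrin and laminin genes (panels) in each library (points), with the mean of each group (line), groups running along the horizontal axis with high Wnt + TGFB at the left and hESC at the right. LAMB1 and ITGA3 are higher with TGFB and lower with SB4 at both doses, LAMA4 is highest in high Wnt + SB4, and ITGB8 is lowest in hESC and lower with TGFB at both doses.

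Of the laminin-binding alpha chains, ITGA3 followed both additives. ITGA3, which pairs with ITGB1 to bind LAMA3 and LAMA5 laminins (chromosome 17, 50055976 to 50090485, plus strand), had 12.5 and 11.1 CPM in high Wnt + TGFB, 1.21 and 1.17 in high Wnt + SB4, and 4.82 and 5.64 in high Wnt. It had 13.4 and 19.3 CPM in low Wnt + TGFB, 5.18 and 5.13 in low Wnt + SB4, 8.77 and 7.41 in low Wnt, and 52.3 and 62.2 in hESC. At each dose the TGFB libraries were highest and the SB4 libraries lowest, and every induced library was under hESC. At each dose the summed epithelial markers given above had the same order of additives and were also highest in hESC, and their part in the ITGA3 result was not tested. ITGA3 rose with TGFB by 1.16 (SE 0.199, adjusted p = 0.00138) in high Wnt and by 1.02 (SE 0.18, adjusted p = 0.000436) in low Wnt. It fell with SB4, with log2 fold changes of -2.14 (SE 0.261, adjusted p = 2.57e-05) in high Wnt and -0.65 (SE 0.195, adjusted p = 0.0405) in low Wnt. The low Wnt call was lost without any 1 of 8 libraries, both of high Wnt + TGFB, high Wnt + SB4, low Wnt + SB4 and low Wnt, with adjusted p of 0.0508 to 0.246. The SB4 effects differed by -1.49 (SE 0.331, adjusted p = 0.0106), or adjusted p = 0.0584 without replicate 2 of high Wnt + SB4. Against hESC, its log2 fold change was -3.44 (SE 0.191) in high Wnt and -2.82 (SE 0.179) in low Wnt.

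ITGA6, the laminin receptor that marks many stem and progenitor cells (chromosome 2, 172427586 to 172506453, plus strand), separated the 2 CHIR99021 doses. It had 70.0 and 65.9 CPM in high Wnt + TGFB, 64.6 and 67.2 in high Wnt + SB4 and 62.1 and 63.1 in high Wnt. It had 192 and 172 CPM in low Wnt + TGFB, 154 and 153 in low Wnt + SB4, 205 and 202 in low Wnt, and 227 and 187 in hESC. All 6 high-dose libraries lay well under all 6 low-dose and both hESC libraries. The log2 fold change of ITGA6 in high Wnt was -1.70 (SE 0.105, adjusted p = 1.02e-09) against low Wnt and -1.73 (SE 0.106, adjusted p = 3.24e-10) against hESC, while that of low Wnt against hESC was -0.02 (SE 0.1, adjusted p = 0.843). With SB4 in low Wnt its log2 fold change was -0.41 (SE 0.1, adjusted p = 0.0126), a call lost without any 1 library of low Wnt + SB4 or low Wnt (adjusted p of 0.0677 to 0.0965). ITGA7, the laminin receptor of skeletal muscle, ran from 79.0 to 146 CPM over all libraries. It averaged 109 ± 4.21 CPM in high Wnt, 130 ± 0.701 in low Wnt and 81.5 ± 3.55 in hESC (SD, n = 2 each). ITGA7 was called higher than hESC at both doses. It was also called lower in high Wnt than in low Wnt, a call lost without any 1 library of either group. ITGA7 fell with TGFB in low Wnt, with a log2 fold change of -0.41 (SE 0.0914, adjusted p = 0.00292), though adjusted p was 0.0565 without replicate 2 of low Wnt + TGFB.

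ITGB4, which pairs with ITGA6 in hemidesmosomes of epithelia, had at most 1.14 CPM in the 6 high-dose libraries. It had 5.26 and 6.61 CPM in low Wnt + TGFB, at most 1.89 in low Wnt + SB4, 4.38 and 3.83 in low Wnt, and 8.29 and 10.0 in hESC. Its log2 fold change in high Wnt was -2.18 (SE 0.363, adjusted p = 0.000134) against low Wnt and -3.34 (SE 0.352, adjusted p = 2.5e-07) against hESC, and that of low Wnt against hESC was -1.15 (SE 0.286, adjusted p = 0.00176). It fell with SB4 in low Wnt, with a log2 fold change of -1.44 (SE 0.322, adjusted p = 0.00725). The SB4 call on ITGB4 was lost without replicate 1 of low Wnt + SB4 (adjusted p = 0.0979) or replicate 1 of low Wnt (adjusted p = 0.0544).

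The alpha chains grouped here as readers of the RGD motif of fibronectin and vitronectin were ITGA5, ITGAV, ITGA8 and ITGA2B. In high Wnt 4 of 4 were called higher than in low Wnt, where 19.4% of all tested genes were. The call for ITGA2B was lost without replicate 2 of low Wnt. Markers of other cell types differed with the dose too. Paraxial mesoderm markers were higher in 7 of 7, at a summed 192 to 230 CPM in high Wnt and 6.93 to 9.13 in low Wnt, and smooth muscle markers in 3 of 4 tested, at 1070 to 1220 CPM in high Wnt and 203 to 231 in low Wnt. Neural tube progenitor markers summed to 33.7 to 41.9 CPM in high Wnt and 290 to 299 in low Wnt, with 4 of 6 lower. The part of these cells in the dose differences was not tested. ITGA5, the fibronectin receptor (chromosome 12, 54395261 to 54419266, minus strand), had 155 and 163 CPM in high Wnt + TGFB, 109 and 116 in high Wnt + SB4, and 182 and 179 in high Wnt. It had 101 and 118 CPM in low Wnt + TGFB, 94.1 and 92.3 in low Wnt + SB4, 81.9 and 89.8 in low Wnt, and 47.2 and 51.8 in hESC. High Wnt stood above every other group and hESC below every other. ITGA5 was 1.07 (SE 0.0985, adjusted p = 1.52e-07) higher in high Wnt than in low Wnt, 1.87 (SE 0.103, adjusted p = 8.75e-11) higher in high Wnt than in hESC, and 0.79 (SE 0.102, adjusted p = 2.76e-06) higher in low Wnt than in hESC. With SB4 in high Wnt its log2 fold change was -0.68 (SE 0.0975, adjusted p = 0.000106), and the SB4 effects differed between doses by -0.80 (SE 0.138, adjusted p = 0.00163). TGFB raised it in low Wnt by 0.35 (SE 0.0983, adjusted p = 0.0145), and the TGFB effects differed by -0.53 (SE 0.138, adjusted p = 0.0177). The TGFB call in low Wnt was lost without replicate 2 of low Wnt + TGFB or replicate 1 of low Wnt (adjusted p of 0.148 to 0.212), and the difference also without replicate 1 of high Wnt + TGFB or of high Wnt (adjusted p of 0.0531 to 0.113 over the 4 libraries). Per kilobase, the ratio of ITGA5 to ITGA6 was 4.01 and 3.88 in high Wnt, 0.545 and 0.608 in low Wnt, and 0.284 and 0.379 in hESC.

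ITGAV, the vitronectin receptor chain (chromosome 2, 186590063 to 186680902, plus strand), had 185 and 198 CPM in high Wnt + TGFB, 143 and 155 in high Wnt + SB4 and 184 and 200 in high Wnt. It had 81.3 and 75.0 CPM in low Wnt + TGFB, 87.3 and 97.7 in low Wnt + SB4, 77.3 and 77.8 in low Wnt, and 101 and 71.2 in hESC. All 6 high-dose libraries were above all others, and the low-dose groups overlapped hESC. ITGAV was 1.31 (SE 0.13, adjusted p = 4.09e-07) higher in high Wnt than in low Wnt and 1.16 (SE 0.13, adjusted p = 5.44e-07) higher than in hESC. Its call with SB4 in high Wnt, at a log2 fold change of -0.37 (SE 0.127, adjusted p = 0.0486), was lost without any 1 of the 12 induced libraries (adjusted p of 0.0503 to 0.219).

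ITGA8, a partner of ITGB1 needed in kidney development, had 4.48 and 6.44 CPM in high Wnt + TGFB, 6.10 and 6.46 in high Wnt + SB4, 2.49 and 3.09 in high Wnt and at most 0.995 CPM in every low-dose library. The hESC libraries held 1 ITGA8 count in all against 75 in high Wnt, a ratio of 71.4 with an exact 95% interval of 12.4 to 2860 for counting error. ITGA8 rose with SB4 in high Wnt by 1.16 (SE 0.287, adjusted p = 0.00826), a call lost without replicate 2 of high Wnt + SB4 or replicate 1 of high Wnt (adjusted p of 0.0541 to 0.0811). It was 2.81 (SE 0.393, adjusted p = 2.17e-05) higher in high Wnt than in low Wnt. ITGA2B, known as the platelet fibrinogen receptor chain, had 32.2 and 32.0 CPM in high Wnt, 22.2 and 18.9 in low Wnt, and 11.4 and 9.50 in hESC. ITGA2B was 1.61 (SE 0.183, adjusted p = 5.81e-07) higher in high Wnt than in hESC and 0.97 (SE 0.184, adjusted p = 0.000163) higher in low Wnt than in hESC, with no call for either additive. Its call for high Wnt against low Wnt was lost without replicate 2 of low Wnt, at a log2 fold change of 0.53 (adjusted p = 0.0709). The 9 blood, platelet and leukocyte markers, GP9, PF4 and PTPRC among them, summed to at most 1.61 CPM in every library, and 7 of the 9 were at 0 in high Wnt.

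The collagen-binding alpha chains were low. ITGA1 had 8.33 and 8.10 CPM in high Wnt + TGFB, 6.92 and 7.19 in high Wnt + SB4, and 4.40 and 5.64 in high Wnt. It had 7.39 and 5.97 CPM in low Wnt + TGFB, 17.4 and 18.4 in low Wnt + SB4, 12.1 and 12.1 in low Wnt, and 14.9 and 8.14 in hESC. Its order with TGFB was opposite at the doses, above no additive in high Wnt and below it in low Wnt. Its log2 fold change in high Wnt was -1.26 (SE 0.238, adjusted p = 0.000452) against low Wnt and -1.20 (SE 0.241, adjusted p = 0.000293) against hESC, or -0.68 against hESC without its replicate 1. With TGFB in low Wnt that of ITGA1 was -0.86 (SE 0.228, adjusted p = 0.0103), or adjusted p = 0.112 without replicate 2 of low Wnt + TGFB. The TGFB effects differed by 1.56 (SE 0.335, adjusted p = 0.00505) between doses. ITGA1 overlaps PELO on the same strand, so its counts from shared exons are uncertain. ITGA2 had at most 10.6 CPM in any induced library, against 20.6 and 12.8 CPM in hESC, with log2 fold changes against hESC of -1.95 (SE 0.253) in high Wnt and -1.38 (SE 0.239) in low Wnt. ITGA11 was tested but called nowhere, and ITGA10 was not tested.

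ITGA4 and ITGA9, related chains whose ligands include VCAM1, and of which ITGA4 also binds fibronectin, were low in all groups. ITGA4 had 2.51 and 1.59 CPM in high Wnt + TGFB, 3.43 and 3.40 in high Wnt + SB4, and 1.58 and 1.51 in high Wnt. It had 5.26 and 6.55 CPM in low Wnt + TGFB, 3.84 and 5.40 in low Wnt + SB4, 6.94 and 5.14 in low Wnt, and 4.74 and 3.22 in hESC, so the high-dose groups lay lowest apart from high Wnt + SB4, which reached hESC. Its log2 fold change in high Wnt was -1.96 (SE 0.313, adjusted p = 8.87e-05) against low Wnt and -1.37 (SE 0.328, adjusted p = 0.0013) against hESC. SB4 raised ITGA4 in high Wnt by 1.14 (SE 0.326, adjusted p = 0.0193), and the SB4 effects differed by 1.52 (SE 0.423, adjusted p = 0.0418). The first call was lost without any 1 library of high Wnt + SB4 or high Wnt (adjusted p of 0.0708 to 0.1). The second was lost without any of these or replicate 1 of low Wnt + SB4 or of low Wnt (adjusted p of 0.0998 to 0.157), and in DESeq2 (adjusted p = 0.0545). ITGA9 had 5.37 and 4.72 CPM in high Wnt + TGFB, 0.699 and 1.17 in high Wnt + SB4, 1.33 and 2.27 in high Wnt, 2.28 and 4.21 in low Wnt + TGFB, 2.99 and 3.30 in low Wnt + SB4, 3.90 and 3.71 in low Wnt, and 8.81 and 6.19 in hESC. It rose with TGFB in high Wnt by 1.46 (SE 0.348, adjusted p = 0.0155), a call lost without either high Wnt + TGFB library or replicate 1 of high Wnt (adjusted p of 0.0526 to 0.155). The TGFB effects on ITGA9 differed by 1.67 (SE 0.474, adjusted p = 0.029), a call lost without any 1 of 6 of the 8 libraries compared (adjusted p of 0.056 to 0.129), all but replicate 2 of high Wnt and replicate 2 of low Wnt + TGFB. Against hESC the log2 fold change of ITGA9 was -2.04 (SE 0.341, adjusted p = 4.62e-05) in high Wnt.

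Among the beta chains ITGB1, the partner of most alpha chains, was the most abundant of the 38 genes per kilobase in every group, at a mean of 126 CPM per kilobase in high Wnt + TGFB, 107 in high Wnt, 82.9 in low Wnt and 119 in hESC. It had 496 and 537 CPM in high Wnt + TGFB, 345 and 345 in high Wnt + SB4, 422 and 450 in high Wnt, 369 and 393 in low Wnt + TGFB, 313 and 355 in low Wnt + SB4, 328 and 350 in low Wnt, and 508 and 462 in hESC. ITGB1 varied little beside most of the other genes that were called, though LAMB2 varied about as little. Its log2 fold change was -0.52 (SE 0.095, adjusted p = 0.000122) in low Wnt against hESC, and its call with SB4 in high Wnt, at -0.34 (SE 0.0948, adjusted p = 0.0175), was lost without replicate 2 of high Wnt or either high Wnt + SB4 library (adjusted p of 0.0809 to 0.108).

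The main beta partners of ITGAV differed from hESC in opposite directions. ITGB5, which makes a vitronectin receptor with ITGAV (chromosome 3, 124761949 to 124887305, minus strand), had 121 and 123 CPM in high Wnt + TGFB, 180 and 161 in high Wnt + SB4, and 159 and 136 in high Wnt. It had 99.8 and 116 CPM in low Wnt + TGFB, 47.0 and 46.2 in low Wnt + SB4, 53.8 and 55.3 in low Wnt, and 372 and 458 in hESC. All induced libraries lay under hESC, and the low Wnt and low Wnt + SB4 libraries lay lowest. The log2 fold change of ITGB5 against hESC was -1.49 (SE 0.116) in high Wnt and -2.93 (SE 0.124) in low Wnt, with adjusted p of 6.43e-09 and 4.25e-12. It was 1.43 (SE 0.12, adjusted p = 4.72e-08) higher in high Wnt than in low Wnt. TGFB raised it in low Wnt by 0.99 (SE 0.119, adjusted p = 9.95e-06), and the TGFB effect in high Wnt minus that in low Wnt was -1.26 (SE 0.166, adjusted p = 7.58e-05).

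ITGB8, which with ITGAV binds latent TGF-beta and releases the active form (chromosome 7, 20331102 to 20415759, plus strand), ran the other way. It had 38.6 and 41.0 CPM in high Wnt + TGFB, 55.0 and 66.9 in high Wnt + SB4, and 88.1 and 101 in high Wnt. It had 34.1 and 30.7 CPM in low Wnt + TGFB, 130 and 149 in low Wnt + SB4, 99.2 and 104 in low Wnt, and 5.25 and 2.63 in hESC. All induced libraries lay far above hESC, and the TGFB libraries were the lowest induced ones at each dose. Neural tube progenitor markers summed to 75.2 to 79.3 CPM in low Wnt + TGFB, 494 to 587 in low Wnt + SB4, 290 to 299 in low Wnt and 3.77 to 4.41 in hESC, the same order. At the high dose their order was another, with 27.7 to 31.7 CPM with TGFB, 151 to 170 with SB4 and 33.7 to 41.9 with no additive. The part of these cells in the ITGB8 result was not tested. Against hESC ITGB8 was higher by 4.56 (SE 0.2, adjusted p = 5.42e-12) in high Wnt and by 4.66 (SE 0.199, adjusted p = 4.92e-12) in low Wnt, or by 5.18 and 5.28 without replicate 1 of hESC. It fell with TGFB, with log2 fold changes of -1.25 (SE 0.153, adjusted p = 6.66e-05) in high Wnt and -1.65 (SE 0.154, adjusted p = 5.8e-07) in low Wnt. With SB4 it fell in high Wnt, at -0.63 (SE 0.148, adjusted p = 0.00597), a call lost without replicate 1 of high Wnt + SB4 or replicate 2 of high Wnt (adjusted p of 0.0541 to 0.0782). In low Wnt the SB4 libraries were above those with no additive, with a log2 fold change of 0.46 (SE 0.144, adjusted p = 0.0522 in edgeR and 0.0165 in DESeq2), and the SB4 effects differed between doses by -1.09 (SE 0.207, adjusted p = 0.00348). ITGB3, the other main ITGAV partner, stayed at or under 3.20 CPM in every library. It was called higher in low Wnt than in hESC, at 64 counts against 7 over the 2 libraries of each group. For high Wnt against hESC it was not called. ITGB6 had no count in any library, which allows up to 0.157 to 0.269 CPM depending on the library.

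The leukocyte chains other than ITGAE were scarce. ITGB2, the common beta chain of leukocyte integrins, had 6.09 and 4.91 CPM in high Wnt + TGFB, 1.08 and 1.39 in high Wnt + SB4, 4.57 and 3.44 in high Wnt, 1.07 and 1.29 in low Wnt + TGFB, 0 and 0.262 in low Wnt + SB4, 0.183 and 0.418 in low Wnt, and 0.444 and 0.509 in hESC. It was 3.69 (SE 0.509, adjusted p = 1.91e-05) higher in high Wnt than in low Wnt, or 4.39 without replicate 2 of low Wnt, and 3.05 (SE 0.498, adjusted p = 3.6e-05) higher than in hESC. It fell with SB4 in high Wnt, at -1.68 (SE 0.412, adjusted p = 0.00796), a call lost without replicate 1 of either group (adjusted p of 0.0653 to 0.0677). It rose with TGFB in low Wnt by 1.94 (SE 0.571, adjusted p = 0.0187), or 2.64 without replicate 2 of low Wnt, a call lost without replicate 2 of low Wnt + TGFB or replicate 1 of low Wnt (adjusted p of 0.107 to 0.148). The alpha partners of ITGB2, namely ITGAL, ITGAM, ITGAX and ITGAD, had too few counts to test, and ITGAD had none. ITGAE, the epithelial-homing chain of T cells, had 12.9 to 23.5 CPM over all libraries although its partner ITGB7 had too few counts to test.

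**Figure D4:**
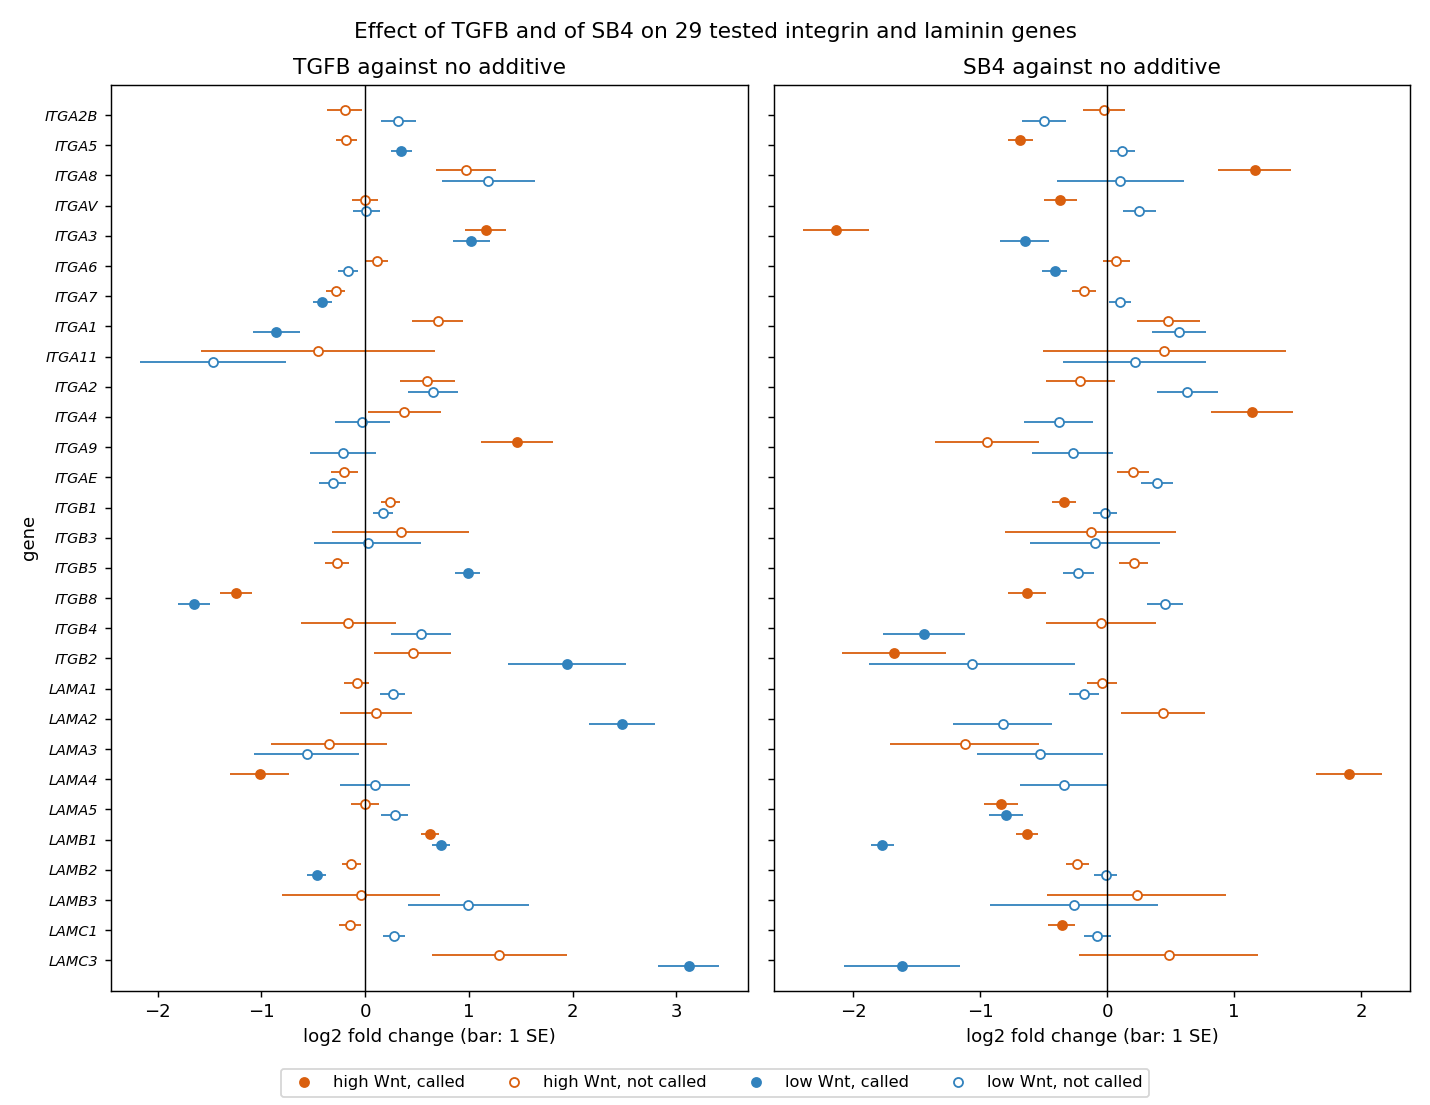
Log2 fold change with 1 SE for 29 of the 30 tested genes, for TGFB (left panel) and SB4 (right panel) against no additive, in high Wnt (orange) and low Wnt (blue). Filled points are called at an adjusted p under 0.05; only LAMB1 and ITGA3 are filled in all 4 comparisons, right of 0 with TGFB and left of 0 with SB4.

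Across the additive comparisons, LAMB1 and ITGA3 were the 2 genes of 30 called in all 4, higher with TGFB and lower with SB4. The share of all tested genes called in all 4 was not counted, so this describes the 30 only. The ITGA3 call with SB4 in low Wnt was lost without any 1 of 8 libraries. ITGB8 was called in 3, lower with TGFB at both doses and lower with SB4 in high Wnt. The comparisons at 1 dose share their libraries without additive, so these counts are not independent of each other. The plot of additive effects also shows where the doses parted. ITGB5, LAMA2 and ITGA1 answered TGFB in low Wnt, and LAMA4, ITGA4 and ITGA5 answered SB4 in high Wnt. Each had a called difference between doses. Both calls for ITGA4, and that for ITGA1 with TGFB in low Wnt, were lost when some single library was left out.

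Genes that work with integrins and laminins were followed in 4 lists: 24 tested genes of the cytoplasmic adhesion complex, 20 of the basement membrane, 19 of other integrin ligands and 18 of other laminin receptors. Their counts are set against the share of all 16149 tested genes called in that direction. In high Wnt + SB4, where 11.6% of all genes fell and 9.94% rose, 10 adhesion complex genes fell and 2 rose, among them VCL (vinculin, -1.05, SE 0.0884, adjusted p = 4.64e-07), TNS1 (-1.24, SE 0.19, adjusted p = 0.000204) and BCAR1 (-1.06, SE 0.177, adjusted p = 0.00043), which link integrins to actin and signaling. There 6 basement membrane genes fell and 1 rose, with COL4A1, a type IV collagen chain, at -0.73 (SE 0.115, adjusted p = 0.000271). Of the ligands 10 fell and 1 rose, led by COL1A1 at -2.63 (SE 0.101, adjusted p = 7.96e-11) and VCAM1, a ligand of ITGA4, at -2.74 (SE 0.218, adjusted p = 2.42e-07), and of the other receptors 4 fell and 3 rose. The fall of smooth muscle markers in these libraries, given above with LAMA4, went with these falls, and its part was not tested. In low Wnt + SB4, where 4.84% of all genes rose and 6.39% fell, the counts were 3 higher and 3 lower, 4 higher and 1 lower, 2 higher and 5 lower, and 1 higher and 2 lower in the same order of lists. VCAM1 rose there by 2.40 (SE 0.133, adjusted p = 8.36e-09) and COL1A1 fell, at -1.48 (SE 0.0976, adjusted p = 5.01e-08).

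With TGFB in low Wnt, where 13.7% of all genes rose and 12.2% fell, 10 adhesion complex genes rose and 2 fell, including FERMT1, an epithelial kindlin, at 1.68 (SE 0.283, adjusted p = 0.000294) and PXN, paxillin, at 0.72 (SE 0.119, adjusted p = 0.000237). Of the basement membrane genes 8 rose and 5 fell there. NID2, a nidogen that ties laminin to type IV collagen, fell by 1.76 (SE 0.106, adjusted p = 6.04e-09), SMOC1 fell by 2.19 (SE 0.153, adjusted p = 2.36e-08), and COL4A4 rose by 3.45 (SE 0.496, adjusted p = 6.16e-05). Of the other ligands 11 rose and 4 fell, EDIL3 rising by 2.08 (SE 0.136, adjusted p = 1.24e-08) and VCAM1 changing by -3.85 (SE 0.197, adjusted p = 1.18e-09). Of the other laminin receptors 2 rose and 5 fell. In high Wnt + TGFB, where 3.75% of all genes rose and 3.49% fell, 2 adhesion complex genes rose, and 2 basement membrane genes rose and 3 fell. There 7 ligands rose and 1 fell, with VCAM1 higher by 1.42 (SE 0.152, adjusted p = 2.21e-05) and COL1A2 higher by 1.21 (SE 0.0933, adjusted p = 6.88e-07).

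Between high Wnt and low Wnt, where 19.4% of all genes were higher and 19.1% lower, 9 adhesion complex genes were higher and 3 lower, VCL by 1.14 (SE 0.0886, adjusted p = 1.87e-08) and ILK, the integrin-linked kinase, by 0.86 (SE 0.127, adjusted p = 4.26e-05). The basement membrane list split, with 8 genes higher and 7 lower: the nidogens went apart, NID1 with a log2 fold change of 3.18 (SE 0.103, adjusted p = 3.81e-13) and NID2 with one of -2.0 (SE 0.108, adjusted p = 1.9e-10). Of the other ligands 11 were higher and 3 lower, EDIL3 by 3.59 (SE 0.134, adjusted p = 1.98e-12) and COL3A1 by 2.88 (SE 0.186, adjusted p = 1.83e-09). Of the other laminin receptors 4 were higher and 6 lower, with DAG1, the dystroglycan gene, at -0.96 (SE 0.105, adjusted p = 1.18e-06). Against hESC, 16 of the 24 adhesion complex genes were lower and 5 higher in low Wnt (35.6% and 35.8% of all genes), and 13 were lower and 6 higher in high Wnt (36.1% and 36.3% of all genes).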

How the data were processed

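All values start from raw gene counts, which the authors deposited as 1 table covering the 14 libraries. The tools and build in the submitters' processing notes are bcl2fastq, HISAT2 2.2.0, SAMtools 1.10, featureCounts 2.0.0 and hg38. Per the file headers, pairs were counted over exons with reverse strandedness, and genes with near-identical copies can lose reads. Trimming is not given in the sources used here. Per the labels' protocols, the RNAqueous-micro kit, poly(A) selection and the NEBNext Ultra II directional kit came before sequencing.

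Genes that passed filterByExpr (16149) were scaled by TMM and tested in edgeR 4.0.16 (R 4.3.3) with quasi-likelihood F-tests. A single model held the 14 libraries, with a mean for each group and 9 contrasts, and p-values were adjusted by the Benjamini-Hochberg method. It had 7 residual degrees of freedom and a biological coefficient of variation of 0.101. The SE is the log2 fold change divided by the root of F. CPM use the TMM-scaled library sizes, and levels per kilobase the table's exon length. Zero counts in a library allow up to 3, or 0.157 to 0.269 CPM. Intervals and floors cover counting error only. The steps were tested on simulated counts. Replicates differed by more than sampling noise in all groups (chi-square per degree of freedom 5.26 to 14.1).

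The 38 genes follow from their symbols, but they, the 4 adhesion lists and the marker lists were chosen with earlier results of these data known. Values of 1 of the 38 are not reported here, though the gene counts include it. Values are given for called genes that averaged 5 CPM or more in their higher group and whose log2 fold change reached 1 in size, for other family members by role, and for some of the up to 4 genes with the smallest p in an adhesion list. The other settings tried were DESeq2 1.42.0, RLE scaling, totals with no scaling factor, unfiltered genes, a fit of the compared groups only, a fit with no hESC, a replicate block, a fold threshold of 1 on the log2 scale, and omission of single libraries. Coordinates are those of the count table (hg38) or, for promoters, of RefSeq (GRCh38.p14).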

Additional observations from a re-analysis of the deposited data

Results flagged for a closer look

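Among genes with values reported here, 11 gene and additive pairs had an effect that differed between the CHIR99021 doses in the edgeR interaction test. Each is given here as the high Wnt effect minus the low Wnt effect on the log2 scale. For SB4 the differences were 1.52 for ITGA4, -0.80 for ITGA5, -1.49 for ITGA3, -1.09 for ITGB8, 2.24 for LAMA4 and 1.14 for LAMB1. ITGA4, ITGA5, ITGB8 and LAMA4 had SB4 fold changes of opposite sign at the 2 doses, those in low Wnt not called, while LAMB1 and ITGA3 were lower with SB4 at both, LAMB1 more so in low Wnt and ITGA3 more so in high Wnt. For TGFB the differences were 1.67 for ITGA9, -0.53 for ITGA5, 1.56 for ITGA1, -1.26 for ITGB5 and -2.36 for LAMA2. The calls for ITGA4 and ITGA3 with SB4, and for ITGA9 and ITGA5 with TGFB, were each lost when some single library was left out. The low Wnt + TGFB libraries in which LAMA2 was high also held more endoderm marker mRNA than low Wnt, at a summed 41.9 to 91.4 CPM against 1.77 to 2.09, more epithelial marker mRNA, at 827 to 1090 CPM against 256 to 280, and more stem cell marker mRNA, at 826 to 888 CPM against 314 to 360, and the part of these cells was not tested.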

How the results depend on the processing

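Over the 9 comparisons 114 gene and comparison pairs were called, and none of the 114 changed sign under any alternative run. Of these, 83 kept their call without each single library and 31 lost it without at least 1. Another setting ended 9 calls: LAMB2 for low Wnt against hESC, ITGAE for high Wnt against hESC, ITGA7 for high Wnt against low Wnt, LAMC3 for SB4 in low Wnt, ITGAV, ITGB1 and LAMC1 for SB4 in high Wnt, LAMA4 for TGFB in high Wnt and ITGA4 for the difference of SB4 effects. Requiring a log2 fold change of at least 1 left 12 of 20 calls for high Wnt against low Wnt, 3 of 6 for SB4 in low Wnt, 6 of 12 for TGFB in low Wnt and 5 of 12 for SB4 in high Wnt. With no filter on low counts SB4 in low Wnt gave 10 calls against 6, and without the hESC libraries TGFB in high Wnt gave 8 against 5. Leaving out 1 library gave 3 to 9 calls for SB4 in low Wnt (3 without any 1 library of low Wnt + SB4 or low Wnt), 6 to 13 for SB4 in high Wnt (6 without replicate 1 of high Wnt + SB4, 7 without replicate 2 of high Wnt) and 3 to 8 for TGFB in high Wnt (3 without replicate 1 of high Wnt + TGFB or of high Wnt, 8 without replicate 2 of hESC). The cause of these shifts was not tested. The labels do not say whether replicate numbers pair the libraries. Deviations of replicate 1 from replicate 2 correlated at -0.166 to 0.309 over 21 group pairs (median 0.0756). These values cannot tell whether some groups were paired. With the replicate block all 114 calls were kept and 5 were added, with 9 calls for SB4 in low Wnt. With 2 libraries a group and few counts, the SE of the log2 fold change was largest for ITGA11, LAMB3, ITGB3 and ITGB2 by its median over the 9 comparisons (0.958, 0.705, 0.675 and 0.571).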
